A study of Mus musculus with 18 samples.

Results

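Genes for the thin filament, titin, the Z-disc and other parts of the muscle sarcomere were followed in cells sorted from mouse tumors and from normal muscle. The list named 35 genes and left out the myosin heavy chains. A gene was taken where an array probe set carried its symbol alone, and among several such probe sets the one brightest on average across the 18 arrays stood for it. Of the 35 genes, 34 were found among the 22180 genes of the arrays, Mybph was not analysed here, and 33 passed the filter on dim genes, Mybpc2 being the member that did not. The members were read in 4 classes by textbook isoform use, with 8 fast genes, 8 slow genes, 3 cardiac or fetal genes and 15 measured genes common to skeletal muscle fibers.

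The study sorted cells from a mouse model of hedgehog-driven, fusion-negative rhabdomyosarcoma, a childhood tumor with features of skeletal muscle. Tumors came from mice of strain BJ;SJL;B6.129 that carried aP2-Cre/+, tdTomato/+ and SmoM2/+, where SmoM2 is a Smoothened that signals without ligand. Their repeats 1 to 3 were of postnatal day 48 and repeat 4 of day 38. The sorted tumor groups were Tom+/Pecam1- cells (n = 4), Tom-/Pecam1- cells (n = 4) and Tom+/Pecam1+ cells (n = 4). Normal sternocleidomastoid muscle of postnatal day 21 came from aP2-Cre/+;tdTomato mice of strain B6;SJL and gave Tom+ cells (n = 3) and Tom- cells (n = 3). All groups, the muscle controls included, therefore carried the Cre and the tdTomato reporter. The mark is set by the aP2 (Fabp4) promoter, which is used by fat cells and by endothelial cells, so Tom+ records past or present Cre activity and not one cell type. The labels call the samples biological repeats and do not say whether each was 1 animal or a pool, and strain, age and tissue change together between tumor and muscle.

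The sarcomere is the contractile unit of striated muscle. Thin filaments of actin and tropomyosin carry the troponin complex, whose subunit C binds calcium, whose subunit I holds contraction back and whose subunit T ties the complex to tropomyosin. Titin spans the sarcomere from the Z-disc, where alpha-actinin crosslinks thin filaments, to the M-band, where myomesins crosslink thick filaments, and nebulin runs along the thin filament. Troponins, myosin light chains, myosin-binding proteins C and myozenins are each made from separate genes in fast and slow fibers, while cardiac actin, cardiac troponin T and the embryonic light chain Myl4 are also made in developing skeletal muscle. Muscle proteins such as desmin and myogenin help to diagnose rhabdomyosarcoma.

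Values below are deposited log2 intensities, on a scale where folds become differences, and one gene's level is compared between samples but never with another gene's level. Tumor arrays had higher medians (5.41 to 5.438) than muscle arrays (5.041 to 5.105), and every tumor against muscle difference was computed after each array was centred on its own median. The tests were limma's moderated tests over 16011 genes with Benjamini-Hochberg adjustment, and a gene was called at an adjusted p under 0.05. Within each tumor repeat number the mean of the 3 sorted groups was the same in all 4 repeats at every probe set to within 7.67e-05, whereas the same quantity ranged by a median of 0.248 between the muscle repeats. The deposited tumor values thus lack differences between repeats, and p-values that use the spread between tumor arrays tend to be too small. The summed intensity of 7 endothelial markers, which include Pecam1, was 14476 to 25454 in tumor Tom+/Pecam1+ cells and 16172 to 17027 in muscle Tom+ cells, and it was 696 to 964 in tumor Tom+/Pecam1- cells, 486 to 989 in tumor Tom-/Pecam1- cells and 1394 to 1726 in muscle Tom- cells. In sorted bulk samples, fewer muscle cells and less sarcomere RNA per muscle cell cannot be told apart.

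Of the muscle libraries, Tom- repeat 2 stood farthest apart in these genes. In it, all 8 fast members lay more than 1 log2 unit below the mean of repeats 1 and 3 (median -2.58, range -3.89 to -1.53), while 162 of all 16011 genes (1.01%) lay that low. Of the other classes, 1 of 8 slow, 0 of 3 cardiac or fetal and 4 of 15 common members did so. Of 12 fiber markers, 3 lay that low in the same array (Myh4 -3.94, Pvalb -3.96 and Casq1 -1.42, list median -0.46), and 0 of 8 satellite cell and myoblast markers were low there (median 0.39 above the other repeats). Muscle Tom+ repeat 2 lay more than 1 log2 unit below Tom+ repeats 1 and 3 in 7 of 34 members (20.6%), against 1.22% of all genes. These were 4 of 8 fast and 3 of 15 common members, the common ones being Acta1 (-1.99), Tpm2 (-1.18) and Myom1 (-1.14). The cause of the low values was not tested. Calls that rest on the muscle arrays are also read without repeat 2, while counts of overlap and of group order include it.

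**Figure D1:**
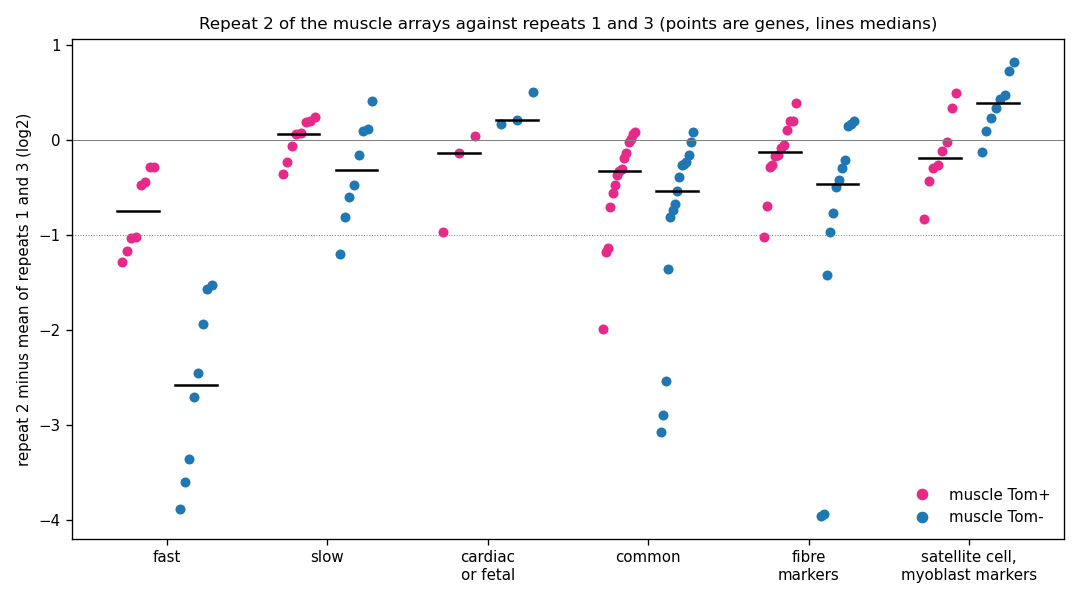
Difference of muscle repeat 2 from the mean of muscle repeats 1 and 3 (log2, y axis) for each gene of 6 lists, with Tom+ arrays at the left and Tom- arrays at the right of each pair; points are genes and black lines medians. All 8 fast genes lie below the dotted line at -1 in muscle Tom- cells, where the median is -2.58, while the cardiac or fetal genes lie between 0.17 and 0.51.

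Tumor Tom+/Pecam1- cells had the most sarcomere RNA of the tumor groups, muscle Tom- cells had the most of the muscle groups, and the 2 groups rich in endothelial markers had the least. With arrays centred on their medians, tumor Tom+/Pecam1- cells had the highest group mean of 18 of 34 members, muscle Tom- cells of 14 and tumor Tom+/Pecam1+ cells of 2 (Myl3 and Tpm3). By class, muscle Tom- cells were highest in 6 of 8 fast members, and tumor Tom+/Pecam1- cells in 4 of 8 slow members, 2 of 3 cardiac or fetal members and 10 of 15 common members. These counts include muscle repeat 2. Without it Mylpf, Acta1 and Myot were at -0.13, -0.49 and -0.68 (tumor Tom+/Pecam1- minus muscle Tom-). The split of 18 and 14 therefore depends on that repeat. In every array of the group, 31 of 34 members were above the 40th percentile of the array in tumor Tom+/Pecam1- cells, 29 in tumor Tom-/Pecam1- cells, 22 in tumor Tom+/Pecam1+ cells, 23 in muscle Tom+ cells and 26 in muscle Tom- cells.

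**Figure D2:**
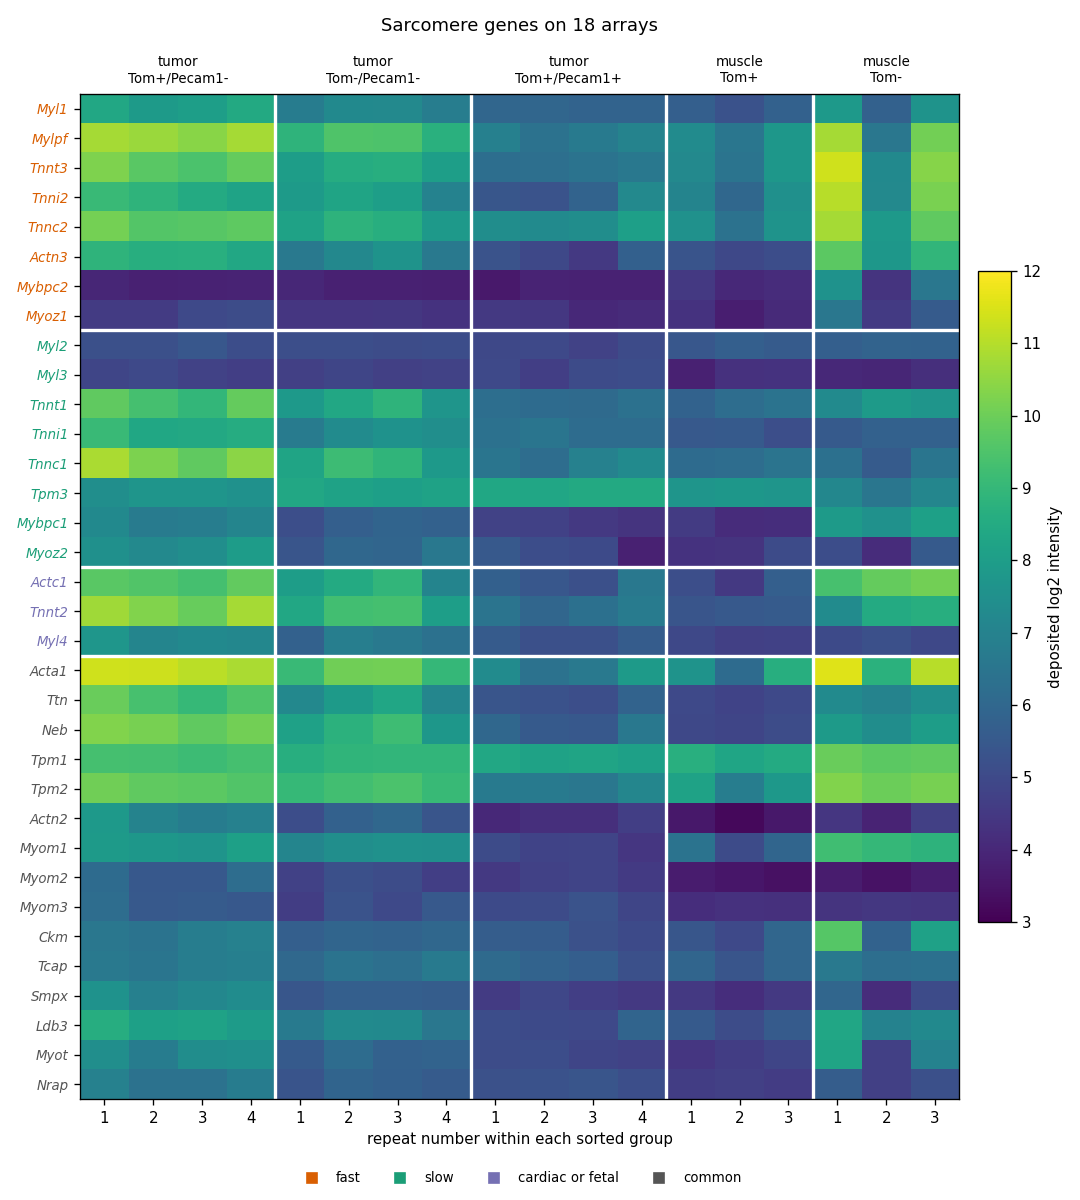
Deposited log2 intensity (color, scale at right) of the 34 measured genes (one per line, named in the color of their class) in the 18 arrays, with the 5 sorted groups side by side and repeats 1 to 4 or 1 to 3 within each. Tumor Tom+/Pecam1- cells are bright in most lines, muscle Tom- cells are bright in the fast genes of repeats 1 and 3, and tumor Tom+/Pecam1+ and muscle Tom+ cells are dark in most lines.

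The comparison of Cre-marked with unmarked cells inside the Pecam1- part of the tumor asks whether the marked tumor cells differ from their unmarked neighbors. Sarcomere genes were higher in the marked cells. Of 33 members tested, 22 rose, 1 (Tpm3) fell and 10 did not pass, with a median change of 1.29 against 0.03 over all 16011 genes. Over all genes 13.4% were called higher and 12% lower. With repeat number as a block 23 members rose and 1 fell, and of all genes 1288 were called higher and 1405 lower. In 27 members every Tom+/Pecam1- array lay above every Tom-/Pecam1- array, which held for 14.7% of all genes, and in 1 member every array lay below (13.1% of all genes). By class, 3 of 7 fast, 5 of 8 slow, 3 of 3 cardiac or fetal and 11 of 15 common members rose. In a fit of the compared groups alone, 27 rose and 1 fell. Mylpf, Tnnt3, Tnni2, Tpm2, Myom1 and Ckm passed there, and Myom3 did not (adjusted p = 0.0767). Such a fit uses the tumor spread alone, and its p-values tend to be too small for the reason given above. Without the day 38 repeat, 18 rose and 1 fell. Myl1, Tnnc2, Acta1 and Myot did not pass there (adjusted p = 0.0656, 0.102, 0.105 and 0.0976). All 8 satellite cell and myoblast markers rose as well (median 1.54), and all 6 leukocyte markers fell (median -2.24) together with 3 of 4 tendon cell markers. The summed leukocyte marker intensity was 2299 to 2969 in Tom+/Pecam1- cells and 6711 to 8728 in Tom-/Pecam1- cells, and its part in the sarcomere result was not tested.

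The comparison of Cre-marked tumor cells without and with Pecam1 sets the marked tumor cells against marked tumor endothelium. Here 30 of 33 members were higher in Tom+/Pecam1- cells, 1 (Tpm3) was lower and 2 (Myoz1 and Myl3) did not pass, with a median change of 2.61 against -0.01 over all genes. Over all genes 23.6% were called higher and 21% lower. In the fit of the compared groups alone 31 members were higher and 1 lower, Myoz1 passing there (adjusted p = 0.0234). The 3 cardiac or fetal members had a median change of 3.87, the 7 fast members 2.71, the 15 common members 2.61 and the 8 slow members 2.35. Neb had the largest difference, 17.9-fold, followed by Acta1 (16.8-fold), Ttn (16.6-fold) and Tnnt2 (16.5-fold). Ckm passed with all arrays (1.31, adjusted p = 0.0421) and did not pass when any one of the 8 arrays was left out (adjusted p 0.0536 to 0.0937). With the mean over its probe sets Ckm did not pass either (0.78, adjusted p = 0.091).

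In normal muscle the mark ran the other way. Of 33 members tested in muscle Tom+ against muscle Tom- cells, 23 fell, 1 (Tpm3) rose and 9 did not pass, with a median of -1.51 against 0 over all genes. Over all genes 20.5% were called lower and 19.1% higher. In 21 members every Tom+ array lay below every Tom- array (25.2% of all genes), and in 1 every array lay above (23.4% of all genes). All 7 tested fast members fell (median -2.27), as did 2 of 8 slow, 2 of 3 cardiac or fetal and 12 of 15 common members. The sample titles do not state that same-numbered muscle arrays are pairs, but their deviations from the group means correlated at 0.27 to 0.31 (3 pairs). With repeat number as a block 21 fell and 1 rose, and Tcap and Nrap did not pass (adjusted p = 0.0578 and 0.0769). Without repeat 2 of both muscle groups, 23 fell and 1 rose, and in repeat 2 alone 13 fell and 1 rose, with 2 of 7 fast members among those that fell. Along with the members, 7 of 7 endothelial markers rose (median 3.47), 8 of 8 satellite cell and myoblast markers fell (median -3.8), and 6 of 8 smooth muscle and pericyte markers and 5 of 5 fibro-adipogenic markers fell. The part of these markers in the sarcomere result was not tested.

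Among the fast genes, Actn3, the alpha-actinin of fast Z-discs, had the largest difference by the mark in muscle. In tumor it read 8.84, 8.66, 8.67 and 8.39 in Tom+/Pecam1- cells, 5.32, 4.95, 4.50 and 5.77 in Tom+/Pecam1+ cells, and 6.64, 7.19, 7.63 and 6.65 in Tom-/Pecam1- cells. In muscle it read 5.34, 4.94 and 5.13 in Tom+ cells and 9.73, 7.76 and 8.94 in Tom- cells. Every marked Pecam1- tumor array was above every unmarked one, and every marked muscle array was below every unmarked one. The mark difference was 1.61 in Pecam1- tumor cells (SE 0.34, adjusted p = 0.00196) and -3.67 in muscle (SE 0.39, adjusted p = 6.13e-07).

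Tnnc2 encodes the calcium-binding troponin C of fast fibers. Its tumor arrays read 10.11, 9.58, 9.66 and 9.75 in Tom+/Pecam1- cells, 7.41, 7.31, 7.40 and 8.09 in Tom+/Pecam1+ cells, and 8.18, 8.81, 8.65 and 7.86 in Tom-/Pecam1- cells. Its muscle arrays read 7.55, 6.41 and 7.62 in Tom+ cells and 10.77, 7.83 and 9.79 in Tom- cells. The groups did not overlap in either mark comparison, and muscle Tom- repeat 2, at 7.83, lay just above the highest Tom+ array, at 7.62. The mark difference was 1.40 in Pecam1- tumor cells (SE 0.44, adjusted p = 0.028), which did not pass without any one of 4 arrays (repeats 1 and 4 of each group, adjusted p 0.0518 to 0.0784), and -2.27 in muscle (SE 0.51, adjusted p = 0.0017).

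Myl1, an essential light chain of fast myosin, read 8.39, 7.91, 8.03 and 8.48 in tumor Tom+/Pecam1- cells, 5.97, 5.96, 5.87 and 5.85 in tumor Tom+/Pecam1+ cells, and 6.79, 7.28, 7.25 and 6.83 in tumor Tom-/Pecam1- cells. The muscle arrays read 5.73, 5.28 and 5.78 in Tom+ cells and 7.84, 5.79 and 7.61 in Tom- cells. Marked and unmarked arrays did not overlap in tumor, and in muscle Tom- repeat 2 lay barely above the Tom+ arrays. Myl1 rose by 1.16 in marked Pecam1- tumor cells (SE 0.31, adjusted p = 0.0103) and fell by 1.48 in marked muscle cells (SE 0.36, adjusted p = 0.00289).

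Myoz1, a Z-disc calsarcin of fast fibers, was near or below the dim level of the arrays in all groups but muscle Tom- (the 40th percentile of each array, 4.80 to 4.88 in tumor, 4.47 to 4.54 in muscle). It read 4.55, 4.58, 4.99 and 5.08 in tumor Tom+/Pecam1- cells, 4.51, 4.46, 4.02 and 4.09 in tumor Tom+/Pecam1+ cells, and 4.41, 4.43, 4.46 and 4.31 in tumor Tom-/Pecam1- cells. In muscle it read 4.33, 3.76 and 4.06 in Tom+ cells and 6.56, 4.53 and 5.57 in Tom- cells. It fell in marked muscle cells (-1.51, SE 0.33, adjusted p = 0.00136) and did not pass in the Pecam1- tumor comparison (0.40, adjusted p = 0.344). Mybpc2, the fast myosin-binding protein C, was measured but not tested. It lay between 3.63 and 3.99 in all 12 tumor arrays, read 4.51, 4.04 and 4.13 in muscle Tom+ cells and read 7.59, 4.37 and 6.57 in muscle Tom- cells.

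The remaining fast genes were Mylpf (the regulatory light chain of fast myosin), Tnnt3 (fast troponin T) and Tnni2 (fast troponin I). In muscle they fell by 1.94, 2.51 and 2.62 in Tom+ cells (adjusted p = 0.0333, 0.0051 and 0.007), although their muscle arrays overlapped because Tom- repeat 2 lay inside the Tom+ range. Mylpf did not pass without any one of 4 muscle arrays (Tom+ repeats 1 and 2, Tom- repeats 1 and 3, adjusted p 0.0594 to 0.204), and Tnni2 did not pass without Tom- repeat 1 (adjusted p = 0.0502). In Pecam1- tumor cells the mark differences were 1.52, 1.49 and 0.87 and did not pass (adjusted p = 0.0729, 0.0645 and 0.341). In a limma fit of those tumor groups alone, without the muscle arrays, they passed (adjusted p = 0.00107, 0.00132 and 0.0484).

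Among the slow genes, Tnnc1, the troponin C of slow and cardiac muscle, had the largest mark difference in Pecam1- tumor cells. It read 10.86, 10.22, 9.80 and 10.44 in tumor Tom+/Pecam1- cells, 6.51, 6.22, 6.94 and 7.32 in tumor Tom+/Pecam1+ cells, and 8.24, 9.17, 8.88 and 7.84 in tumor Tom-/Pecam1- cells. It read 6.13, 6.23 and 6.45 in muscle Tom+ cells and 6.32, 5.59 and 6.49 in muscle Tom- cells. The tumor groups were fully apart and the muscle groups overlapped. Tnnc1 was 3.48-fold higher in Tom+/Pecam1- than in Tom-/Pecam1- tumor cells (1.80, SE 0.30, adjusted p = 0.000335), and its muscle difference was 0.13 (SE 0.34, adjusted p = 0.798).

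Tnni1, the slow troponin I that developing fibers also make, followed the same order in tumor. It read 9.11, 8.37, 8.43 and 8.56 in Tom+/Pecam1- cells, 6.35, 6.50, 6.19 and 6.19 in Tom+/Pecam1+ cells, and 6.75, 7.35, 7.59 and 7.46 in Tom-/Pecam1- cells. In muscle it read 5.52, 5.54 and 5.16 in Tom+ cells and 5.56, 5.79 and 5.78 in Tom- cells. Marked Pecam1- tumor arrays lay above all others, with a difference of 1.33 from the unmarked tumor cells (SE 0.18, adjusted p = 5.33e-05), and the muscle groups, which ran from 5.16 to 5.79, did not pass (-0.31, adjusted p = 0.261).

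Mybpc1, the slow myosin-binding protein C, had the smallest adjusted p of all members in muscle. It read 7.28, 6.76, 6.83 and 7.08 in tumor Tom+/Pecam1- cells, 4.79, 4.74, 4.51 and 4.36 in tumor Tom+/Pecam1+ cells, and 5.17, 5.74, 5.89 and 5.79 in tumor Tom-/Pecam1- cells. It read 4.56, 4.14 and 4.18 in muscle Tom+ cells and 7.92, 7.55 and 8.13 in muscle Tom- cells. Muscle Tom- repeat 2 was the lowest of its group here too, but far above every Tom+ array. It was 11.9-fold lower in marked muscle cells, where 1 of 3 arrays was above the dim level, than in unmarked ones (-3.58, SE 0.20, adjusted p = 2.42e-10) and 2.53-fold higher in marked than in unmarked Pecam1- tumor cells (1.34, SE 0.17, adjusted p = 4e-05).

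Tnnt1, the slow troponin T, read 9.82, 9.35, 8.95 and 9.87 in tumor Tom+/Pecam1- cells, 6.25, 6.16, 6.11 and 6.34 in tumor Tom+/Pecam1+ cells, and 7.85, 8.40, 8.85 and 7.71 in tumor Tom-/Pecam1- cells. It read 5.84, 6.21 and 6.43 in muscle Tom+ cells and 7.30, 7.91 and 7.70 in muscle Tom- cells. It rose by 1.29 in marked Pecam1- tumor cells (SE 0.24, adjusted p = 0.000766) and fell by 1.48 in marked muscle cells (SE 0.27, adjusted p = 0.000293). Myoz2, the calsarcin of slow and cardiac Z-discs, rose by 1.56 in marked Pecam1- tumor cells (adjusted p = 0.00335) and did not pass in muscle (-0.37, adjusted p = 0.521). The ventricular light chains Myl2 and Myl3, which slow fibers share with the heart, were low in all groups, Myl3 being above the dim level in 6 of 18 arrays and Myl2 in 17, and passed in neither mark comparison. The highest Myl2 array read 5.43 in tumor Tom+/Pecam1- cells and 5.87 in muscle Tom- cells, and the highest Myl3 array 4.99 and 4.23 in the same groups.

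In each comparison by mark, Tpm3 was the only member called against the direction of the others. In muscle 3 members had a positive difference, and of these Tpm3 alone was called. Its product is the slow tropomyosin of muscle, but the same gene also makes tropomyosins of nonmuscle cells, and the array value does not separate the forms. It read 7.45, 7.70, 7.68 and 7.55 in tumor Tom+/Pecam1- cells, 8.35, 8.31, 8.46 and 8.48 in tumor Tom+/Pecam1+ cells, and 8.41, 8.20, 8.07 and 8.18 in tumor Tom-/Pecam1- cells. It read 7.70, 7.76 and 7.70 in muscle Tom+ cells and 7.16, 6.55 and 7.13 in muscle Tom- cells. The Tom+/Pecam1- cells were lowest of the tumor groups, and the Tom+ cells were the higher of the muscle groups, with no overlap. The differences were -0.62 against unmarked tumor cells (SE 0.12, adjusted p = 0.0011), -0.80 against marked tumor endothelium (SE 0.12, adjusted p = 2.63e-05) and 0.77 in muscle (SE 0.14, adjusted p = 0.000201). A second, dimmer Tpm3 probe set averaged 6.22 in tumor Tom+/Pecam1- cells, 7.12 in tumor Tom+/Pecam1+ cells and 6.62 in tumor Tom-/Pecam1- cells, and 7.05 in muscle Tom+ cells and 6.35 in muscle Tom- cells. Its arrays overlapped between marked and unmarked Pecam1- tumor cells (6.08 to 6.42 against 6.37 to 6.88). They also overlapped between marked and unmarked muscle cells (6.63 to 7.61 against 5.87 to 6.93).

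Among the cardiac or fetal genes, Actc1, the cardiac actin that embryonic skeletal muscle also uses, read 9.71, 9.55, 9.36 and 9.83 in tumor Tom+/Pecam1- cells, 5.76, 5.43, 5.20 and 6.60 in tumor Tom+/Pecam1+ cells, and 8.01, 8.51, 8.93 and 7.06 in tumor Tom-/Pecam1- cells. It read 5.17, 4.48 and 5.73 in muscle Tom+ cells and 9.37, 9.89 and 10.08 in muscle Tom- cells. Marked and unmarked arrays did not overlap in either tissue, and muscle Tom- repeat 2 was not low. Actc1 was 25.2-fold lower in marked than in unmarked muscle cells (-4.65, SE 0.41, adjusted p = 7.93e-08), the largest change of the 33 members there, and 2.80-fold higher in marked than in unmarked Pecam1- tumor cells (1.49, SE 0.36, adjusted p = 0.00554).

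Tnnt2, cardiac troponin T, read 10.71, 10.30, 9.90 and 10.79 in tumor Tom+/Pecam1- cells, 6.46, 5.98, 6.31 and 6.75 in tumor Tom+/Pecam1+ cells, and 8.39, 9.28, 9.36 and 8.03 in tumor Tom-/Pecam1- cells. It read 5.38, 5.53 and 5.59 in muscle Tom+ cells and 7.35, 8.50 and 8.63 in muscle Tom- cells. All groups compared by mark were apart, with a rise of 1.66 in tumor (SE 0.31, adjusted p = 0.000872) and a fall of 2.66 in muscle (SE 0.36, adjusted p = 1.03e-05). Myl4, the atrial and embryonic light chain, read 7.73, 7.08, 7.28 and 7.17 in tumor Tom+/Pecam1- cells, 5.59, 5.18, 5.20 and 5.61 in tumor Tom+/Pecam1+ cells, and 5.81, 6.86, 6.65 and 6.34 in tumor Tom-/Pecam1- cells. It read 4.94, 4.70 and 4.73 in muscle Tom+ cells and 5.01, 5.19 and 4.95 in muscle Tom- cells. Myl4 rose in marked tumor cells (0.90, SE 0.19, adjusted p = 0.00228) and did not pass in muscle (-0.26, adjusted p = 0.389). Of 7 heart markers, 4 were at or below the dim level in every tumor Tom+/Pecam1- array and 1 (Nkx2-5) rose in those cells against the unmarked ones (0.83).

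Acta1, the actin of adult skeletal thin filaments, read 11.35, 11.31, 11.07 and 10.85 in tumor Tom+/Pecam1- cells, 7.33, 6.41, 6.63 and 7.92 in tumor Tom+/Pecam1+ cells, and 9.10, 10.06, 10.08 and 9.01 in tumor Tom-/Pecam1- cells. It read 7.62, 6.14 and 8.63 in muscle Tom+ cells and 11.55, 8.75 and 11.03 in muscle Tom- cells. The mark groups were apart in both tissues, although in muscle the highest Tom+ array (8.63) came close to Tom- repeat 2 (8.75). The rise in marked tumor cells (1.58, SE 0.55, adjusted p = 0.0442) did not pass without any one of 7 of the 8 arrays, Tom-/Pecam1- repeat 3 being the exception (adjusted p 0.0504 to 0.119), nor without the filter on dim genes (adjusted p = 0.0557). In muscle it was 7.88-fold lower in Tom+ cells (-2.98, SE 0.64, adjusted p = 0.00111).

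Ttn, which encodes titin, read 9.95, 9.37, 9.04 and 9.51 in tumor Tom+/Pecam1- cells, 5.37, 5.25, 5.16 and 5.87 in tumor Tom+/Pecam1+ cells, and 7.20, 7.91, 8.32 and 7.14 in tumor Tom-/Pecam1- cells. It read 4.99, 4.80 and 5.0 in muscle Tom+ cells and 7.31, 7.01 and 7.49 in muscle Tom- cells. Ttn was apart in both mark comparisons, and its muscle Tom- repeat 2 was close to the other repeats. It was 3.55-fold higher in marked than in unmarked Pecam1- tumor cells (1.83, SE 0.24, adjusted p = 4.81e-05), the largest such change of the 33 members, and 5.06-fold lower in marked muscle cells (-2.34, SE 0.28, adjusted p = 2.6e-06). Neb, the nebulin gene, changed in the same directions, with a difference of 1.60 in tumor (adjusted p = 0.000403) and -2.80 in muscle (adjusted p = 1.25e-06).

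At the Z-disc, Actn2, an alpha-actinin of heart and skeletal muscle, read 7.83, 7.01, 6.79 and 6.96 in tumor Tom+/Pecam1- cells, 4.05, 4.20, 4.21 and 4.67 in tumor Tom+/Pecam1+ cells, and 5.13, 5.81, 6.01 and 5.38 in tumor Tom-/Pecam1- cells. It read 3.59, 3.21 and 3.58 in muscle Tom+ cells and 4.41, 3.89 and 4.70 in muscle Tom- cells. Actn2 rose in marked tumor cells (1.57, SE 0.24, adjusted p = 0.000153). In muscle the arrays were dim, and the fall of 0.87 (adjusted p = 0.017) did not pass without Tom+ repeat 2, Tom- repeat 1 or Tom- repeat 3 (adjusted p 0.0501 to 0.0883). Ldb3, a PDZ protein that binds alpha-actinin, and Myot, or myotilin, rose in marked tumor cells (1.26 and 1.44, adjusted p = 0.00232 and 0.0306) and fell in marked muscle cells (-2.12 and -2.01, adjusted p = 2.67e-05 and 0.00596). Myot did not pass in tumor without any one of 6 arrays (all but repeat 2 of each group, adjusted p 0.0511 to 0.0837). Nrap, a scaffold of nascent myofibrils, rose by 0.98 in tumor (adjusted p = 0.000565). Tcap, the titin cap, did not pass there (0.35, adjusted p = 0.197). In muscle Tcap and Nrap changed by -0.63 and -0.54 (adjusted p = 0.0268 and 0.0397), and besides the block result Tcap did not pass without Tom+ repeat 2 or Tom- repeat 1, nor Nrap without any one of the arrays other than Tom- repeat 2.

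Smpx, a small muscle protein linked to the cell's costameres, read 7.60, 6.92, 7.18 and 7.39 in tumor Tom+/Pecam1- cells, 4.56, 4.91, 4.68 and 4.51 in tumor Tom+/Pecam1+ cells, and 5.41, 5.74, 5.71 and 5.67 in tumor Tom-/Pecam1- cells. It read 4.49, 4.17 and 4.51 in muscle Tom+ cells and 5.97, 4.15 and 5.06 in muscle Tom- cells. The marked tumor cells stood clear of every other array (1.64 against unmarked tumor cells, SE 0.26, adjusted p = 0.000222). Its muscle groups overlapped through Tom- repeat 2 (-0.67, adjusted p = 0.0848), and without that array it passed (adjusted p = 0.001).

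Among the tropomyosins, Tpm1 read 9.35, 9.30, 9.16 and 9.34 in tumor Tom+/Pecam1- cells, 8.39, 8.18, 8.27 and 8.11 in tumor Tom+/Pecam1+ cells, and 8.63, 8.88, 8.94 and 8.92 in tumor Tom-/Pecam1- cells. It read 8.69, 8.28 and 8.49 in muscle Tom+ cells and 9.96, 9.73 and 9.80 in muscle Tom- cells. The range was narrow and no group compared by mark overlapped, with 0.44 in tumor (adjusted p = 0.00398) and -1.34 in muscle (SE 0.12, adjusted p = 6.64e-08). Tpm2 read 10.04, 9.82, 9.73 and 9.56 in tumor Tom+/Pecam1- cells, 6.69, 6.68, 6.57 and 7.13 in tumor Tom+/Pecam1+ cells, and 9.04, 9.26, 9.46 and 9.07 in tumor Tom-/Pecam1- cells. It read 8.17, 6.80 and 7.80 in muscle Tom+ cells and 10.30, 9.97 and 10.16 in muscle Tom- cells. Tpm2 fell 5.87-fold in marked muscle cells (adjusted p = 2.46e-07), and its tumor difference did not pass (0.58, adjusted p = 0.0604). It passed in the fit of the compared tumor groups alone (adjusted p = 0.0113). Both genes are also used by smooth muscle, whose markers fell in marked muscle cells too.

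At the M-band, Myom1 read 7.91, 7.78, 7.67 and 8.10 in tumor Tom+/Pecam1- cells, 5.05, 4.81, 4.83 and 4.44 in tumor Tom+/Pecam1+ cells, and 7.09, 7.46, 7.55 and 7.51 in tumor Tom-/Pecam1- cells. It read 6.44, 5.04 and 5.92 in muscle Tom+ cells and 9.25, 9.01 and 8.81 in muscle Tom- cells. It fell 9.35-fold in marked muscle cells (adjusted p = 1.86e-08) and did not pass between the Pecam1- tumor groups (0.47, adjusted p = 0.139), though it did in the fit of those groups alone (adjusted p = 0.0292). For the other myomesins, Myom2 and Myom3 rose in marked tumor cells (0.91 and 0.59, adjusted p = 0.00088 and 0.0197) and did not pass in muscle (-0.06 and -0.16), where they were dim. The Myom3 rise did not pass without repeat 1 of either tumor group (adjusted p 0.0782 to 0.0821).

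Ckm, the creatine kinase of mature fibers that docks at the M-band, had a low value in the same muscle array as the fast genes. It read 6.57, 6.42, 6.83 and 6.95 in tumor Tom+/Pecam1- cells, 5.65, 5.61, 5.24 and 5.01 in tumor Tom+/Pecam1+ cells, and 5.73, 5.92, 5.88 and 5.99 in tumor Tom-/Pecam1- cells. It read 5.40, 4.97 and 5.96 in muscle Tom+ cells and 9.63, 5.82 and 8.16 in muscle Tom- cells, so that Tom- repeat 2 lay inside the Tom+ range. The muscle difference was -2.43 (SE 0.58, adjusted p = 0.00267), and the Pecam1- tumor difference of 0.81 did not pass (adjusted p = 0.267) although all 4 marked arrays were above all 4 unmarked ones. In the fit of those tumor groups alone it passed (adjusted p = 0.00248). A second Ckm probe set was below the dim level in every tumor array. It averaged 4.57 in tumor Tom+/Pecam1- cells, 4.32 in tumor Tom+/Pecam1+ cells and 4.20 in tumor Tom-/Pecam1- cells. In muscle it averaged 4.57 in Tom+ cells and 5.67 in Tom- cells.

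**Figure D3:**
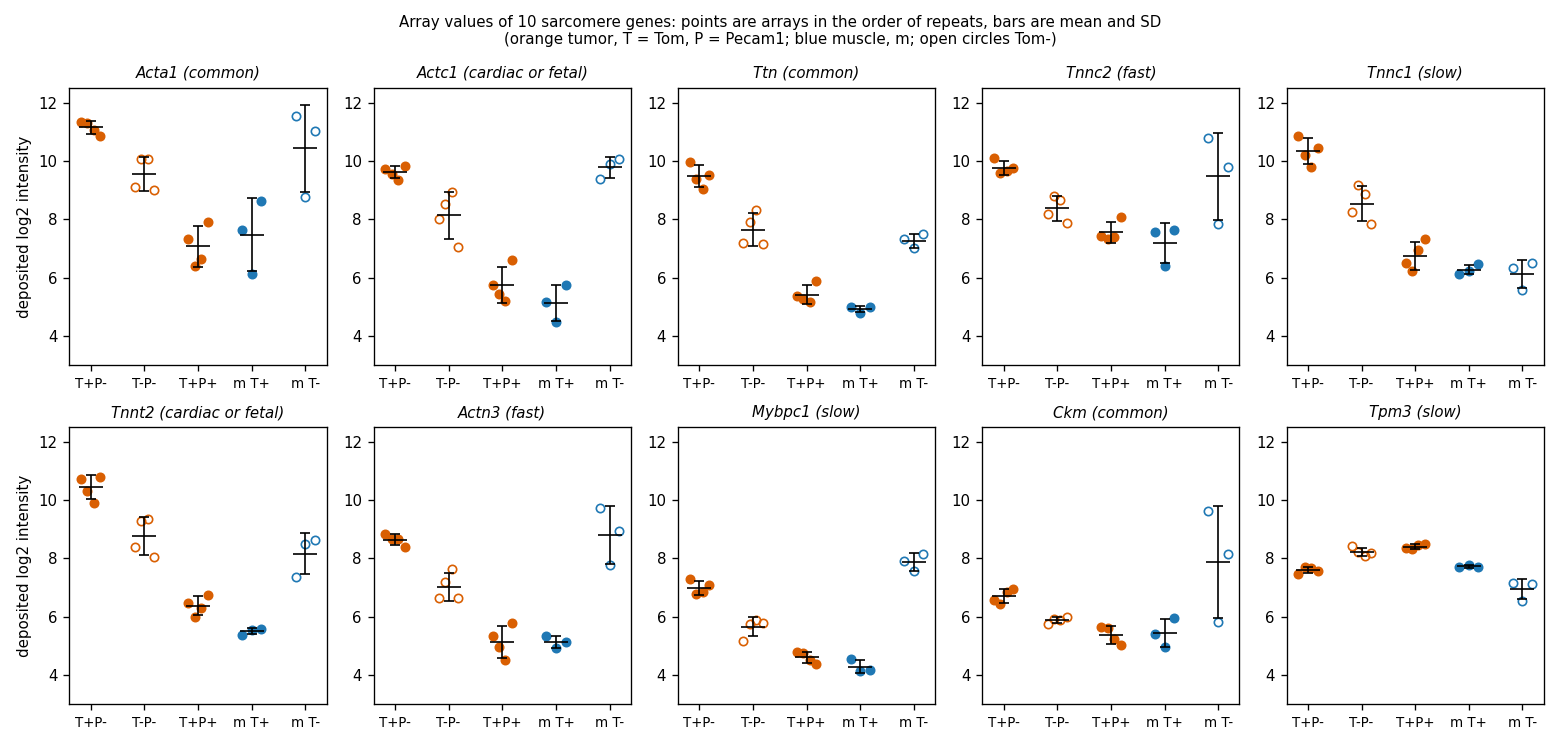
Deposited log2 intensity (y axis) of 10 sarcomere genes in the 5 sorted groups (x axis; T is Tom, P is Pecam1, m is muscle); points are single arrays, horizontal bars group means and error bars SDs. Marked Pecam1- tumor arrays (filled orange, left) lie above the unmarked tumor arrays (open orange) in each of the 10 genes except Tpm3, while in muscle the marked arrays (filled blue) lie below the unmarked ones (open blue) for Actn3, Tnnc2, Mybpc1, Actc1, Tnnt2, Acta1 and Ttn, and above them for Tpm3.

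The difference by mark compares sorted populations and is called the mark effect here. Whether it was unlike in tumor and in muscle was tested directly, as the tumor difference minus the muscle difference. Of 33 members, 30 had a higher mark difference in Pecam1- tumor cells, 1 (Tpm3, -1.39, SE 0.18, adjusted p = 9.87e-06) a lower one, and Myl2 and Myl3 did not pass (0.33 and 0.00). The median was 2.78, against 0.01 over all genes, of which 20.9% were called higher and 18.5% lower. The largest differences were in Actc1 (6.14, SE 0.55, adjusted p = 1.32e-07), Actn3 (5.29, SE 0.51, adjusted p = 3.36e-07), Mybpc1 (4.92, SE 0.26, adjusted p = 5.22e-10) and Acta1 (4.56, SE 0.84, adjusted p = 0.000341). Tnnc1 and Tnni1 differed by 1.66 and 1.64, and neither passed in muscle alone. With repeat number as a block Myom3 did not pass (0.75, adjusted p = 0.0343 without and 0.1 with the block). Without muscle repeat 2, 29 members were higher and 1 lower, Myom3 not passing (adjusted p = 0.0861), and the fast median was 4.18, against 3.49 with all arrays. With repeat 2 as the only muscle repeat 23 were higher and 1 lower, and the fast median was 2.11. Tnni2, Tnnc1, Myoz2, Myl4, Myom2, Myom3 and Tcap did not pass there (adjusted p 0.0516 to 0.268). The satellite cell and myoblast markers differed in the same direction in 8 of 8 genes (median 5.4). The tumor cells were also sorted by Pecam1, with the marked Pecam1+ cells in a group of their own, while the muscle samples are titled by Tom alone. Marked muscle cells were high in endothelial markers and marked Pecam1- tumor cells were low in them. The groups compared by mark are thus not alike in the 2 tissues, in their sort or in their cells. The part of this in the difference was not tested.

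**Figure D4:**
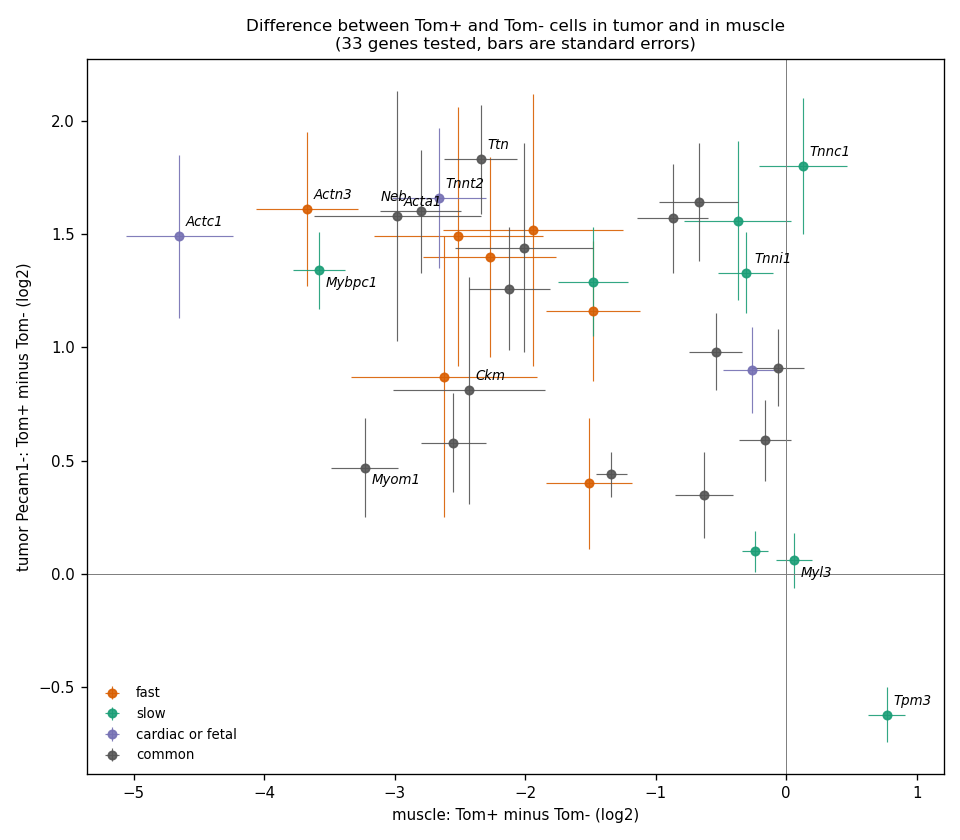
Difference between Tom+ and Tom- cells in muscle (x axis, log2) and in the Pecam1- part of the tumor (y axis, log2) for the 33 genes tested, colored by class, with standard errors as bars. Most genes lie in the upper left (lower with the mark in muscle, higher in tumor), Actc1 is farthest left at -4.65, Tnnc1 lies near 0 in muscle and at 1.80 in tumor, and Tpm3 alone lies at the lower right (0.77 and -0.62).

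Marked Pecam1- tumor cells were next set against the unmarked cells of normal muscle, the muscle group with the higher sarcomere levels, to ask how the tumor cells differ from the tissue. Both groups also enter the comparisons above, so the results are not independent of one another. Both also held markers of other cells. Fibro-adipogenic markers summed to 6440 to 11633 in tumor Tom+/Pecam1- and 9520 to 10854 in muscle Tom- cells. Smooth muscle and pericyte markers summed to 9479 to 11151 and 14318 to 16393 in the same order. Their part in the differences was not tested. More of the slow, cardiac or fetal and common members were called higher than lower in the tumor cells. No fast member was called higher with all arrays after centring. Of 33 members, 14 were higher, 7 lower and 12 did not pass (median 0.37, all genes 0.01). Over all genes 24.1% were called higher and 23% lower, so many genes of every kind differed between these 2 sources of cells. Slow members passed in 5 higher and 2 lower of 8 (median 0.97), cardiac or fetal members in 2 higher of 3, common members in 7 higher and 4 lower of 15, and fast members in 0 higher and 1 lower of 7 (median -0.19). With the deposited values left uncentred, 16 were higher and 5 lower, and 8196 of all genes were higher and 1541 lower against 3866 and 3679 after centring. The fast gene Myl1 was among the higher there (1.12, adjusted p = 0.00829). After centring it also passed without muscle Tom- repeat 1 or repeat 3 (adjusted p 0.013 to 0.03), as did Mylpf without Tom- repeat 1 (adjusted p = 0.0176).

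In the slow class, Tnnc1 was 14.5-fold higher in the tumor cells (3.86, SE 0.32, adjusted p = 7.39e-08), Tnni1 5.94-fold (2.57, SE 0.19, adjusted p = 1.85e-08), Myoz2 4.80-fold (2.26, SE 0.39, adjusted p = 0.000152) and Tnnt1 2.87-fold (1.52, SE 0.26, adjusted p = 0.000144). These 4 genes did not overlap between the groups. Mybpc1 went the other way (-1.22, SE 0.19, adjusted p = 6.27e-05), as did Myl2 (-0.92, adjusted p = 1.2e-06). Among the cardiac or fetal genes, Tnnt2 and Myl4 were both 3.81-fold higher (adjusted p = 0.000184 and 1.12e-06), and Actc1 did not pass (-0.50, 95% interval -1.32 to 0.32, adjusted p = 0.309).

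In the common class, Neb was 3.92-fold higher, Smpx 3.67-fold and Ttn 3.64-fold, and Actn2 and Myom2 differed by 2.48 and 1.88 on the log2 scale (adjusted p from 3.8e-07 to 4.25e-05 over the 5 genes), while Myom1 was 2.81-fold lower (adjusted p = 7.91e-05), Tpm1 1.84-fold lower (adjusted p = 7.86e-06) and Tpm2 1.61-fold lower (adjusted p = 0.0233). In muscle Tom- cells Actn2 was above the dim level in 1 of 3 arrays and Myom2 in 0 of 3, so no fold is given for them. Tpm2 did not pass without Tom+/Pecam1- repeat 4, muscle Tom- repeat 1 or muscle Tom- repeat 3 (adjusted p 0.0601 to 0.0813) or without centring (adjusted p = 0.201). Acta1 did not pass (0.37, 95% interval -0.90 to 1.64, adjusted p = 0.642). Of the 12 fiber markers measured beside them, 7 were higher, 3 lower and 2 did not pass (median 0.74). Those higher were embryonic Myh3 (3.74), perinatal Myh8 (3.16), Mb (1.88), Myh1 (1.45), Ryr1 (0.83), Myh7 (0.78) and Cacna1s (0.70), and those lower were Pvalb (-4.23), Myh4 (-4.0) and Atp2a1 (-0.58). Of the 8 satellite cell and myoblast markers, 1 was higher and 1 lower, and they summed to 3448 to 4601 in the tumor cells and 2893 to 4859 in muscle Tom- cells.

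The fast class, Ckm, Acta1 and Myot depended on muscle repeat 2. Without it, 5 of 7 fast members were lower in the tumor cells and 0 higher (median -1.04). Tnni2 was at -2.28, Myoz1 at -1.61, Tnnt3 at -1.40, Actn3 at -1.04 and Tnnc2 at -0.85 (adjusted p = 0.00123, 5.85e-05, 0.0009, 0.0188 and 0.0292). Against repeat 2 alone, 4 of 7 fast members were higher and 0 lower (median 1.63). Ckm was lower with all arrays (-1.51, adjusted p = 0.031) and at -2.55 without repeat 2 (adjusted p = 1.36e-05). Acta1 was at -0.49 without repeat 2 (adjusted p = 0.371) and at 2.08 against it alone (adjusted p = 0.0107). Myot was at -0.68 (adjusted p = 0.0682) and 2.25 (adjusted p = 9.19e-05) under the same choices. Myl3 did not pass without repeat 2 (adjusted p = 0.0925), and against it alone Tpm3 passed (0.74, adjusted p = 0.00209) and Tpm2 did not (adjusted p = 0.121). The slow genes Tnnc1, Tnni1, Myoz2 and Tnnt1, and Tnnt2 and Myl4, kept their calls under both choices. Mybpc2, not tested, was above the dim level in 0 of 4 tumor Tom+/Pecam1- arrays and in 2 of 3 muscle Tom- arrays, with every tumor array below every muscle Tom- array.

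**Figure D5:**
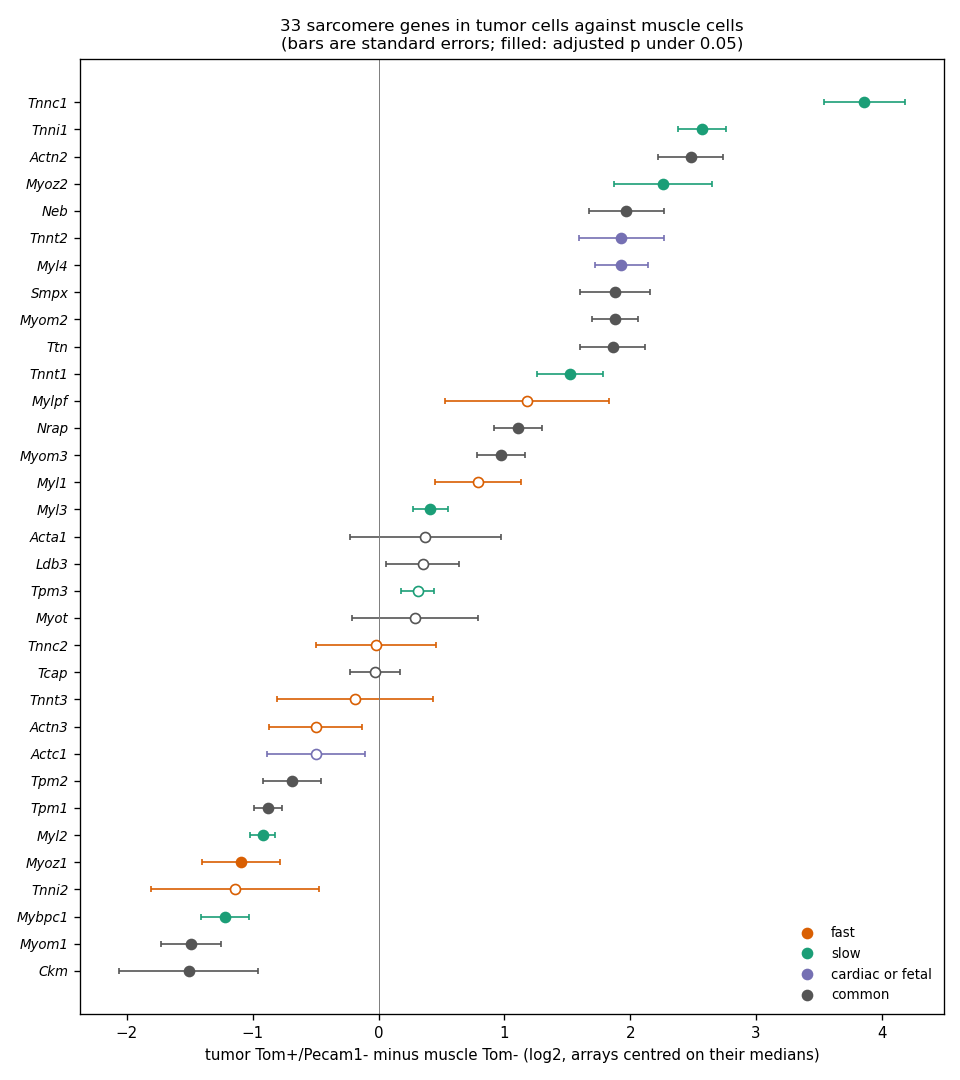
Difference of tumor Tom+/Pecam1- cells minus muscle Tom- cells (x axis, log2, arrays centred on their medians) for the 33 genes tested, ordered from the most higher (top) to the most lower (bottom), colored by class, with standard errors as bars and filled points for an adjusted p under 0.05. Slow and structural genes such as Tnnc1 (3.86), Tnni1 (2.57) and Actn2 (2.48) are at the top, Ckm (-1.51) and Myom1 (-1.49) at the bottom, and the fast genes have wide bars.

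Slow and fast partners were also read as a log2 ratio within each array, which removes the centring. The ratio holds the brightness of both probe sets, so only its shift between groups is read, and it was added after the data were seen and has no test. The Tnnc1 to Tnnc2 ratio was 0.74, 0.64, 0.14 and 0.69 in tumor Tom+/Pecam1- cells, against -4.45, -2.24 and -3.30 in muscle Tom- cells, a shift of 3.88 toward the slow gene with no overlap. For Tnni1 to Tnni2 it was 0.01, -0.47, -0.09 and 0.35 in tumor Tom+/Pecam1- cells, against -5.45, -1.45 and -4.39 in muscle Tom- cells, a shift of 3.71 with no overlap. Myoz2 to Myoz1 shifted by 3.35, also with no overlap. The shift for Tnnt1 to Tnnt3 was 1.71, and the muscle range of -4.06 to 0.64 took in the tumor range of -0.50 to 0.01. Mybpc1 to Mybpc2 shifted by 1.40, with the muscle range of 0.34 to 3.18 overlapping the tumor range of 2.92 to 3.32. The cardiac to skeletal actin ratio, Actc1 to Acta1, shifted by -0.87, with overlap. Within the tumor, Tom+/Pecam1- cells differed from Tom-/Pecam1- cells by 0.40 for Tnnc1 to Tnnc2, 0.46 for Tnni1 to Tnni2 and -0.20 for Tnnt1 to Tnnt3, with overlap in each. The Myoz2 to Myoz1 ratio differed by 1.16 there and that of Mybpc1 to Mybpc2 by 1.31, without overlap, Myoz1 and Mybpc2 being near or below the dim level.

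The stretches upstream of 2 actin genes and of the slow and fast troponin C genes are shown because Tnnc1 was far higher, and Tnnc2 was not, in tumor Tom+/Pecam1- than in muscle Tom- cells, and because the fetal and adult actins are classic targets of muscle transcription factors. Each line gives the 250 bases before the RefSeq start of the gene (build GRCm38.p6), 5' to 3' along the gene's strand, with E-boxes (CANNTG, the element bound by MyoD-family and other basic helix-loop-helix factors) and CArG boxes (bound by serum response factor) in capitals. Acta1 lies at chr8:123894776-123895025 on the minus strand, Actc1 at chr2:114052876-114053125 on the minus strand, Tnnc1 at chr14:31208062-31208311 on the plus strand and Tnnc2 at chr2:164779735-164779984 on the minus strand.
Acta1: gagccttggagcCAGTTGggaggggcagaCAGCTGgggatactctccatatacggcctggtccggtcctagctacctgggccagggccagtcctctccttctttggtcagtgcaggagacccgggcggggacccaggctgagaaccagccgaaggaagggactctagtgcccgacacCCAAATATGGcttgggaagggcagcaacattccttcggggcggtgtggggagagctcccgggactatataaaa
Actc1: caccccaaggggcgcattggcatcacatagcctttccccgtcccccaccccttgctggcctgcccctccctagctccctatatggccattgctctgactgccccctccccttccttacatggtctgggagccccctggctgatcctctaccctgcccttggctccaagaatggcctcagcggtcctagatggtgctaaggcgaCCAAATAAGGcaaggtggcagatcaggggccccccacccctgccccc
Tnnc1: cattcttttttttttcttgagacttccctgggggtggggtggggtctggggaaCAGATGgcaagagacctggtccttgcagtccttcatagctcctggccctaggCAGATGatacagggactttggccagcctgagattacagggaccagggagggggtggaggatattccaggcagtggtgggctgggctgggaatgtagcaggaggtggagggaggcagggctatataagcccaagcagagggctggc
Tnnc2: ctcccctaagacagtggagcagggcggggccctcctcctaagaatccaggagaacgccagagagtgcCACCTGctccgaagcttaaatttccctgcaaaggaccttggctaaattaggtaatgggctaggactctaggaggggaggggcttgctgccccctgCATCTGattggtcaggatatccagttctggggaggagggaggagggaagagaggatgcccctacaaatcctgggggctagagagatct
Both actin windows hold a CArG box, and both troponin C windows hold 2 E-boxes and no CArG box. A RefSeq window was at hand for 27 of the 35 named genes. Searched on both strands, with matches of different motifs allowed to overlap, an E-box was in 23 of the 27 windows (85.2%, against 66% of 27025 mouse promoter windows of the same length), MCAT (CATTCC) in 8 (29.6% against 12.6%), the CArG box in 5 (18.5% against 1.4%) and the MEF2 box in 3 (11.1% against 3.01%). The CArG box was in the windows of Myl3, Actc1, Acta1, Myom1 and Ldb3, and the MEF2 box in those of Myoz2, Ttn and Myom3. A match is a string of letters, and binding was not measured.

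Unmarked tumor cells were compared with unmarked muscle cells in the same way. Of 33 members, 7 were higher in tumor Tom-/Pecam1- cells, 13 lower and 13 did not pass (median -0.37, all genes -0.02). Over all genes 23.8% were called higher and 24.9% lower. Fast members passed in 5 lower and 0 higher of 7 (median -1.49), and slow members in 4 higher and 2 lower of 8. Tnnc1 and Tnni1 were higher here too (2.06 and 1.24, adjusted p = 6.84e-05 and 5.89e-05), with Myl4 (1.03), Myom2 (0.97) and Actn2 (0.91). Actc1 was 3.97-fold lower (adjusted p = 0.0005), Mybpc1 5.89-fold lower (adjusted p = 2.68e-08) and Ckm 5.02-fold lower (adjusted p = 0.0021). This comparison shares its muscle arrays with the previous one. Without muscle repeat 2, 5 were higher and 17 lower, with all 7 fast members lower, and against repeat 2 alone 11 were higher and 6 lower. Uncentred, 11 were higher and 10 lower, and of all genes 7854 were higher and 1554 lower. The 8 satellite cell and myoblast markers were all lower in the unmarked tumor cells (median -1.67) and 5 of 6 leukocyte markers were higher (median 1.86).

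Marked tumor endothelium against marked muscle cells, the 2 groups rich in endothelial markers, showed few sarcomere differences. Of 33 members, 3 were higher in tumor Tom+/Pecam1+ cells (Myom2 0.74, Tnni1 0.54 and Myl3 0.46), 4 were lower (Myom1 -1.37, Tpm2 -1.18, Myl2 -1.0 and Tpm1 -0.61) and 26 did not pass, including all 7 fast members. The median was -0.05, against -0.03 over all genes, of which 15.7% were called higher and 18.5% lower. Most of these levels were low, and with values uncentred the split was 10 higher and 3 lower, and 7642 genes higher and 802 lower over all genes. Among the 3 called higher after centring, Myom2 was above the dim level in 0 tumor Tom+/Pecam1+ and 0 muscle Tom+ arrays. Myl3 was above it in 3 tumor Tom+/Pecam1+ and 0 muscle Tom+ arrays. Without muscle repeat 2 the split was 3 higher and 8 lower, with Mylpf, Tnnt3, Tnni2 and Acta1 among the lower. Tnni1 did not pass without any one of 5 arrays (adjusted p 0.0534 to 0.15), and Myl3 did not pass without muscle Tom+ repeat 1 (adjusted p = 0.11). Smooth muscle markers were lower in tumor Tom+/Pecam1+ cells in 5 of 8 genes, in the same samples as Tpm1 and Tpm2, and their part was not tested.

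Other sarcomere genes, which are not on the list, were counted in the same comparisons. Of 32 named, 31 were measured and 30 tested. In marked against unmarked Pecam1- tumor cells 15 rose and 0 fell, with the smallest adjusted p in Klhl41 (1.57, adjusted p = 5.04e-05), a Kelch protein of the sarcomere, Csrp3 (1.72), the muscle LIM protein, Pdlim3 (1.32), a PDZ-LIM protein of the Z-disc, and Flnc (0.97), the muscle filamin. In marked against unmarked muscle cells 18 fell, among them Flnc (-2.48), Cryab (-3.71), a small heat shock protein, and Des (-2.87), the desmin gene (adjusted p = 2.52e-09, 1.88e-08 and 2.74e-07), and 2 rose, namely Unc45b (1.34), a myosin chaperone, and Nebl (1.0), which encodes the nebulin relative nebulette. The mark difference was higher in tumor than in muscle for 20 and lower for 2 of the 30. Of all genes, 13.4% were called higher and 12% lower by the tumor mark, and 19.1% and 20.5% by the muscle mark. For the difference of the marks the shares were 20.9% and 18.5%.

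In marked Pecam1- tumor cells against marked tumor endothelium 20 of these genes were higher and 4 lower (23.6% and 21% of all genes). Unc45b was among the lower (-1.19), so that it was higher in the cells rich in endothelial markers in both tissues. Csrp3 had the largest gap to normal muscle. It read 9.19, 8.40, 8.19 and 8.26 in tumor Tom+/Pecam1- cells, 6.22, 7.0, 7.14 and 6.79 in tumor Tom-/Pecam1- cells, and 5.01, 4.56 and 5.20 in muscle Tom- cells. Both tumor groups lay above every muscle array, and the difference of tumor Tom+/Pecam1- from muscle Tom- cells was 3.25 (adjusted p = 3.02e-08). In that comparison 10 of the 30 genes were higher and 5 lower, against 24.1% and 23% of all genes.

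The counterparts used by other cells were measured beside them. Of 11 such genes, 4 rose and 0 fell in marked Pecam1- tumor cells against unmarked ones (Ckb 0.49, Actn4 0.37, Myl12a 0.39 and Actg2 0.95), while in marked muscle cells 3 rose (Tpm4 0.54, Myl12a 0.41 and Actn4 0.39) and 5 fell. The 5 that fell were Ckb (-1.80), the brain creatine kinase, the smooth muscle actins Acta2 (-2.73) and Actg2 (-2.93), the smooth muscle light chain Myl9 (-2.03) and Actn1 (-0.71). The ubiquitous actins Actb and Actg1 passed in neither mark comparison. Of all genes, 13.4% were called higher and 12% lower in the tumor comparison, and 19.1% and 20.5% in the muscle comparison.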

How the data were processed

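Sorted cells of mouse tumors and normal muscle were profiled on 18 arrays. Per the labels' protocols, tissue was digested with collagenase B and Dispase II, cells were sorted by flow cytometry, total RNA was extracted with DNase treatment, and cDNA was amplified with the NuGEN Ovation Pico v2 assay and labelled with biotin. The deposited values are log2 intensities per probe set, for which RMA and Partek are named per the submitters' processing notes. Versions, the order of steps and the build behind the probe sets are not given in the sources used here. RMA sets a floor of background under dim probe sets, which narrows their differences.

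The 41345 probe sets comprised 23521 annotated to a single symbol, 1814 to several symbols and 16010 to no symbol. Each of the 22180 genes was read from its brightest probe set on average across the 18 arrays. Testing required values above the array's own 40th percentile in 3 or more arrays, which left out 6169 genes. limma 3.58.1 in R 4.3.3 fitted 1 mean for each of the 5 sorted groups with lmFit and eBayes, two-sided, with Benjamini-Hochberg adjustment over the 16011 genes of each comparison. Tumor and muscle arrays were compared after centring on array medians, whose means differed by 0.343. The test script was tested on simulated data with known changes. Tables and figures were made with pandas 2.3.3 and matplotlib 3.10.9 in Python 3.11.15.

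The repeat numbers were checked as pairs by the correlation of deviations from the group means. In muscle, same-numbered arrays correlated at 0.27 to 0.31 (3 pairs) and other pairs at -0.19 to -0.09 (6 pairs). In tumor the check is void, because the deposited values hold no difference between the repeat means, and same-numbered arrays correlated at -0.72 to -0.17 (12 pairs). All members may be named, with every array's value for Acta1, Actc1, Ttn, Ckm and those with the smallest adjusted p of each class, and further members were added after their values were seen. Members, lists and alternatives were chosen with earlier results of these data known. The settings that leave out muscle repeat 2 or keep it alone, and the isoform ratios, were added after the data were examined. The alternatives were no filter, a filter at the 60th percentile, quantile normalization, other centring, means over probe sets, a trended robust prior, a fit of the compared groups alone, repeat number as a block, and leaving arrays out. The 3 or 4 arrays per group limit the precision, and p-values measure only the spread between these samples.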

Additional observations from a re-analysis of the deposited data

Results flagged for a closer look

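The mark effect, a difference between sorted populations, differed between Pecam1- tumor cells and muscle in 31 of the 33 genes tested, 30 higher and 1 lower. Over all genes 20.9% were called higher and 18.5% lower. It was tested as the tumor difference minus the muscle difference in the limma fit, with Benjamini-Hochberg adjusted p from 5.22e-10 to 0.0343 over the members called. Among the fast genes the difference was 5.29 for Actn3, 4.0 for Tnnt3, 3.67 for Tnnc2, 3.49 for Tnni2, 3.47 for Mylpf, 2.65 for Myl1 and 1.91 for Myoz1. The fast values moved with muscle repeat 2, their median being 3.49 with all arrays, 4.18 without that repeat and 2.11 with it as the only muscle repeat, where Tnni2 did not pass (2.11, adjusted p = 0.104). Among the slow genes it was 4.92 for Mybpc1, 2.78 for Tnnt1, 1.93 for Myoz2, 1.66 for Tnnc1, 1.64 for Tnni1 and -1.39 for Tpm3. The cardiac or fetal genes gave 6.14 for Actc1, 4.32 for Tnnt2 and 1.16 for Myl4. The thin filament and titin genes common to all fibers gave 4.56 for Acta1, 4.40 for Neb, 4.17 for Ttn, 3.13 for Tpm2 and 1.79 for Tpm1. At the Z-disc and costamere the difference was 3.44 for Myot, 3.38 for Ldb3, 2.44 for Actn2, 2.31 for Smpx, 1.53 for Nrap and 0.98 for Tcap. At the M-band it was 3.69 for Myom1, 3.24 for Ckm, 0.97 for Myom2 and 0.75 for Myom3. Marked muscle cells were high in endothelial markers and marked Pecam1- tumor cells low in them. The tumor groups were also sorted by Pecam1 and the muscle samples are titled by Tom alone, so unlike groups are compared in the 2 tissues.

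Of 102 sets of 4 tumor arrays examined for a single array far from the other 3, 5 had one by Dixon's criterion, and chance alone gives about 5%. Tumor Tom+/Pecam1+ repeat 4 read 8.09 for Tnnc2, against 7.31 to 7.41 in the others. Tumor Tom-/Pecam1- repeat 1 read 3.99 for Mybpc2, against 3.80 to 3.83. In tumor Tom+/Pecam1- cells, repeat 3 read 5.43 for Myl2, against 5.14 to 5.19, repeat 1 read 6.23 for Myom3, against 5.49 to 5.59, and repeat 2 read 6.79 for Myot, against 7.41 to 7.47. The muscle groups, with 3 arrays each, were not examined in this way.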

How the results depend on the processing

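With muscle repeat 2 as the only muscle repeat, 14 members and 3524 genes were called in the muscle comparison (24 and 6352 with all arrays), 4856 genes in tumor Tom+/Pecam1- against muscle Tom- cells (7545), 5136 in tumor Tom-/Pecam1- against muscle Tom- cells (7796), 1 member and 2983 genes in tumor Tom+/Pecam1+ against muscle Tom+ cells (7 and 5482), and 3972 genes for the difference of mark effects (6319). This setting has 1 array per muscle group, which is assumed to vary like the other groups, and fewer arrays. Under it the sign turned, among values called with or without the change, in tumor Tom+/Pecam1- against muscle Tom- cells for Tnnt3 (2.23, adjusted p = 0.000172), Tnnc2 (1.63, adjusted p = 0.0042) and Ckm (0.56, adjusted p = 0.106). In tumor Tom-/Pecam1- against muscle Tom- cells it turned for Myl1 (0.93), Mylpf (2.27), Tnnt3 (0.74), Tnni2 (0.25), Tnnc2 (0.23) and Myot (0.81). With repeats 1 and 3 alone, 11 members were called in tumor Tom+/Pecam1+ against muscle Tom+ cells. In the same comparison 13 members and 8444 genes were called without centring. The cause of these shifts was not tested.

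With repeat number as a block, 2693 genes were called in marked against unmarked Pecam1- tumor cells (4065 without), Mylpf and Tnnt3 then passed (adjusted p = 0.025 and 0.0222) and Myom3 did not (adjusted p = 0.0787). In tumor the block has no differences between repeat means to remove. The fit without the block still counts degrees of freedom for them, and so its tumor p-values tend to be too small. Residual degrees of freedom over all groups were 13 without and 8 with the block. The blocked fit also had block terms for the muscle repeats, and its spread is pooled over all groups. The part of those terms in the tumor calls was not tested. The block changed no other call of a member in the comparison of tumor groups, and the changes in muscle are given with the results. In the fit of the compared groups alone 28 members were called there and 20 in muscle.

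When single arrays were left out, members called ranged from 19 to 25 in muscle, 19 to 23 for marked against unmarked Pecam1- tumor cells, 29 to 30 for marked tumor cells against marked tumor endothelium, 19 to 23 for tumor Tom+/Pecam1- and 16 to 22 for tumor Tom-/Pecam1- against muscle Tom- cells, 5 to 7 for tumor Tom+/Pecam1+ against muscle Tom+ cells and 30 to 32 for the difference of mark effects. Genes called ranged, in the same order, from 5525 to 5913, 2871 to 3993, 6394 to 6713, 6588 to 6982, 6857 to 7562, 4430 to 5150 and 5747 to 6343. The Myom3 difference of mark effects did not pass without any one of 7 arrays (adjusted p 0.0591 to 0.0665). In all, 1775 of these values kept their call, 21 gained a call and 85 lost one. Under the other alternatives 2116 kept it, 52 gained a call, 72 lost one and the 9 named above turned sign. Values called neither before nor after are counted as keeping it, and 35 of them changed sign when an array was left out and 43 under the other alternatives, among them Tnni2 (1.12) and Actn3 (0.57) in tumor Tom+/Pecam1- cells against muscle Tom- repeat 2 alone. Dim genes such as Myl3, Myoz1 and Mybpc2 lie near the arrays' background, which limits what can be seen of them.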
